A study of Drosophila melanogaster with 96 samples.

Results

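The heads of adult Drosophila melanogaster were examined for 7 genes of glutathione synthesis and antioxidant defence: Gclc, Gclm, Sod2, Cat, Trxr-1, cnc and Keap1. They were taken by symbol from a table of 17698 genes, and all 7 passed the filter on low values that left 10568 genes for testing. The choice of genes was made with earlier results of these data known. The study compared flies with RNAi against Achl (Achilles) with controls, in females and in males, and called the genotypes RNAi and control; the control construct and the driver of the RNAi are not named in the labels. Each of the 4 groups (female control, female RNAi, male control, male RNAi) held 24 libraries, collected 2 h apart between circadian times (CT) 24 and 70, so that no time point had a replicate in its group. A library came from a pool of 7 to 8 heads of flies that were 3 to 5 days old, and that had been kept at 25 °C in cycles of 12 h light and 12 h dark until they were moved to constant darkness 24 h before the first collection. Values are TPM, a gene's share of all transcripts corrected for transcript length, so levels of different genes can be set side by side; errors are the SD over the 24 libraries of a group or the standard error (SE) of a fitted change.

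Glutathione is the main small thiol of animal cells. Glutamate-cysteine ligase makes its precursor, with Gclc as the catalytic and Gclm as the modifier subunit, and both subunits have been described as under clock control in fly heads. Sod2, the manganese superoxide dismutase of the mitochondrial matrix, turns superoxide into hydrogen peroxide, and Cat, catalase, breaks the peroxide down. Flies have no glutathione reductase, and Trxr-1, thioredoxin reductase, takes over its task through thioredoxin. The transcription factor cnc, the fly counterpart of mammalian NRF2, switches on antioxidant genes, and Keap1 binds it and holds it back.

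The 7 genes lie on 4 chromosome arms of dm6 by the Ensembl release 115 annotation. Gclc is at X:8102181-8116147 on the minus strand and Trxr-1, written Trxr1 there, is at X:8242528-8248033 on the plus strand. Gclm at 3R:22685006-22686510, Keap1 at 3R:17073942-17079945 and cnc at 3R:23185580-23226711 are all on the minus strand, Cat is at 3L:18822604-18828188 on the plus strand, and Sod2 is on 2R. Exons of Trxr-1 share 435 bases with the opposite-strand gene sni, which averaged 17.9 TPM, and exons of cnc share 63 bases with Irk1 and CG46310 on the opposite strand. The library kit keeps strand, but no source used here says whether the counting used it. The cnc value sums 16 annotated transcripts, so the long NRF2-like isoform cannot be told from the others.

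The level of Achl served as a check of the labels. It was 68.3 ± 21.8 TPM in female controls and 15.6 ± 2.95 TPM in female RNAi (SD, n = 24 each), with no overlap of the ranges. In males it was 77.7 ± 39.1 and 22.5 ± 7.64 TPM, and the lowest control library, 16.6 TPM, lay below the highest RNAi library, 33.8 TPM. Female libraries fell into low and high sets by mt:lrRNA, the mitochondrial large ribosomal RNA, with 14 control and 15 RNAi libraries under 50000 TPM, 12 of each from the second day (CT48 to CT70), while every male library was above that level. Markers of photoreceptors, neurons, glia and fat body were present in every group, as in whole heads. The summed level of 6 photoreceptor markers averaged 50877 ± 8808 TPM in female controls against 26776 ± 4841 under RNAi. In males it averaged 41157 ± 4841 against 24811 ± 2799 TPM. Most of that drop was ninaE, at 33790 against 12210 TPM in females and 25265 against 10381 in males. Arr2 was at 13448 against 11159 TPM in females and 12112 against 11064 in males. trp was higher under RNAi in females, at 1299 against 1152 TPM, and at 891 against 900 in males. The part of these markers in the members' RNAi differences was not tested. Of the ovary markers 4 of 5, and the 4 testis and accessory gland markers in the table, averaged under 1 TPM. The summed level of 6 antimicrobial peptide genes had a median of 98.5 TPM in female controls against 16891 in female RNAi, and 40.6 against 13485 in males. In pools of whole heads, fewer cells of a type and less RNA per cell cannot be told apart.

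Cat was the most abundant of the 7 genes in every group and Keap1 the least. In female controls the means were 267 TPM for Cat, 85.4 for cnc, 85.0 for Gclm, 65.3 for Sod2, 56 for Trxr-1, 46.6 for Gclc and 14.6 for Keap1. Cat stood above 95.2% of the tested genes there and Keap1 above 40.5%. The repressor message was thus scarcer than that of its target: the ratio of cnc to Keap1 averaged 5.98 ± 1.59 in female and 5.87 ± 0.897 in male controls, and 5.93 ± 0.911 in female and 6.51 ± 0.85 in male RNAi (SD, n = 24).

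**Figure D1:**
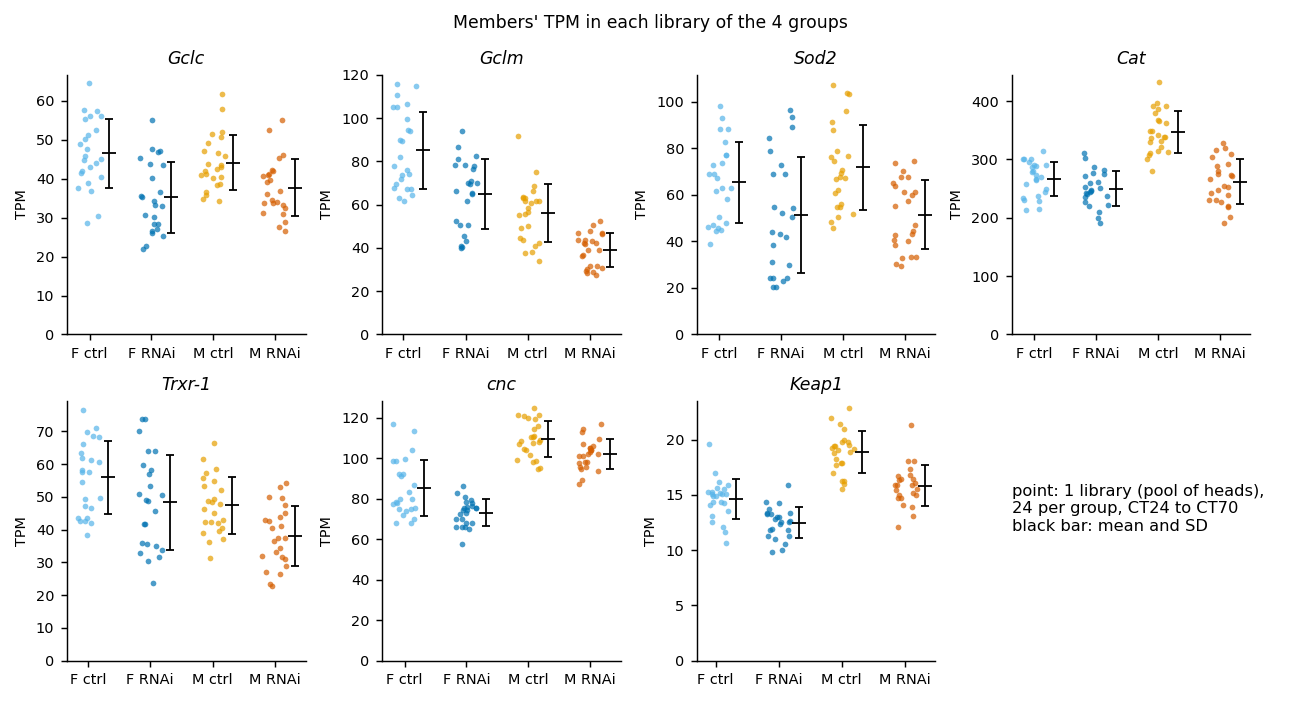
Each panel plots TPM (vertical axis, from 0) of 1 gene in the 24 libraries of each group; points are libraries, and black bars are the mean and SD. Female controls are highest for Gclm, at 85.0 ± 17.9 TPM; male controls stand highest for Cat at 347 ± 36.5 TPM; male groups are higher than female groups for cnc and Keap1.

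Under Achl RNAi, 6 of the 7 genes were lower in females and all 7 in males, to between 0.709 and 0.933 of the control level. This has to be read against the background, because most genes were called lower in these libraries: with limma on log2(TPM + 1) and Benjamini-Hochberg adjustment at 0.05, 60.4% of the tested genes were called in females (55.7% lower, 4.70% higher) and 58.1% in males (53.5% lower, 4.61% higher). The median change over all tested genes was -0.18 on the log2 scale in females and -0.16 in males, and the members' changes ran from -0.47 to -0.10 in females and from -0.50 to -0.10 in males. When each library was centred on its own median, which sets the level of a gene against the other genes of its library, 11% of genes were lower and 11.2% higher in females, and 17.7% lower and 14.7% higher in males. On that scale Gclc and Gclm were called lower in females, and Gclm, Sod2, Cat and Trxr-1 in males. Sod2 in females was at -0.30 when centred, further from 0 than Gclc and Gclm, and missed the threshold (adjusted p = 0.0515), and Trxr-1 in females was at -0.07 (adjusted p = 0.494).

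Gclc, the catalytic subunit, ranged in female controls from 28.7 to 64.7 TPM with a median of 45.4, and in female RNAi from 21.9 to 55.1 with a median of 33.7. The ranges overlapped, and 8 of the 24 RNAi libraries lay below every control library. Gclc fell by 0.41 on the log2 scale in females (SE 0.073, limma adjusted p = 1.84e-06, lower in 22 of 24 same-CT pairs). In males it ranged from 34.4 to 61.8 TPM in controls, median 42.8, and from 26.5 to 55.2 under RNAi, median 36.4, with 10 RNAi libraries below every control. The change in males was -0.23 (SE 0.073, limma adjusted p = 0.00646, 21 of 24 pairs). After median centring the female change was -0.24 (adjusted p = 8.99e-06) and the male change -0.07 (adjusted p = 0.241). The changes in the sexes differed by -0.18 (95% interval -0.39 to 0.02, limma adjusted p = 0.267), a difference that passed the threshold after centring, at -0.18 with an adjusted p of 0.0471.

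Gclm, the modifier subunit, ranged from 61.5 to 116 TPM in female controls with a median of 80.0, and from 39.7 to 94.1 TPM in female RNAi with a median of 67.8. In male controls it ran from 34.1 to 91.5 TPM with a median of 57.7, and in male RNAi from 27.4 to 52.3 with a median of 40.5. In each sex 8 of the 24 RNAi libraries lay below every control library of that sex. The change was -0.40 in females (SE 0.093, limma adjusted p = 0.000193, 20 of 24 pairs) and -0.50 in males (SE 0.093, limma adjusted p = 5.88e-06, 22 of 24 pairs). Of the 7 genes, Gclm alone was called lower in both sexes with and without median centring, at -0.23 in females (adjusted p = 0.01) and -0.34 in males (adjusted p = 6.87e-05) when centred. It was also called in every alternative that was run, 12 in females and 10 in males.

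The balance of the ligase subunits differed by sex. Per library, the ratio of Gclm to Gclc averaged 1.85 ± 0.323 in female controls and 1.88 ± 0.405 in female RNAi, against 1.27 ± 0.259 in male controls and 1.04 ± 0.15 in male RNAi (SD, n = 24). In male RNAi the ratio ran from 0.767 to 1.34, and in female RNAi from 1.32 to 2.88. The 2 RNAi ranges met only at their ends. The control ranges overlapped more widely, at 1.24 to 2.36 in females and 0.851 to 1.79 in males.

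Relative to its mean, Sod2 had the widest spread of the 7 genes in each group, with a coefficient of variation of 25.7% to 48.8%. It ranged from 38.9 to 98.3 TPM in female controls (median 65.0) and from 20.3 to 96.5 TPM in female RNAi (median 47.1). In males it ranged from 45.5 to 107 TPM in controls (median 68.4) and from 29.4 to 74.3 TPM under RNAi (median 51.2), with 11 RNAi libraries below every control. The change was -0.47 in females (SE 0.143, limma adjusted p = 0.00429, 20 of 24 pairs) and -0.49 in males (SE 0.143, limma adjusted p = 0.00302, 20 of 24 pairs). The female value rested on the high-mt libraries: it was -0.95 among them (adjusted p = 8.3e-06) and -0.22 among the low-mt libraries (adjusted p = 0.181). The male value was -0.74 on the first day (adjusted p = 0.000744) and -0.24 on the second (adjusted p = 0.0776). Within female RNAi, Sod2 averaged 65.4 ± 20.3 TPM in the 15 low-mt libraries and 27.5 ± 7.83 TPM in the 9 high-mt libraries; whether mt:lrRNA or the day has a part in the RNAi difference was not tested.

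Cat separated the sexes. Male controls ranged from 279 to 433 TPM with a median of 341, and male RNAi from 191 to 328 with a median of 260. In males 16 of the 24 RNAi libraries lay below every control library, and the RNAi library was the lower of the pair at all 24 times. The male change was -0.41 (SE 0.049, limma adjusted p = 2.61e-11). In females the controls ranged from 213 to 315 TPM (median 272) and RNAi from 192 to 310 (median 247), and the difference of -0.10 did not pass the threshold (SE 0.049, limma adjusted p = 0.0776, 17 of 24 pairs). Female Cat was called lower in 4 of 12 alternatives, among them the second day (-0.18, adjusted p = 0.00151) and the low-mt females (-0.14, adjusted p = 0.0362), and was at -0.02 on the first day (adjusted p = 0.832). The sexes' changes differed by 0.32 (SE 0.07, limma adjusted p = 0.000542, 21 of 24 times), and Cat was the only one of the 7 genes called in that test, where 14.1% of all tested genes were called. Relative to males, the female effect was the higher one in 5.75% of all genes and the lower one in 8.37%, against 8.09% and 6.25% after median centring, and 608 and 885 genes against 551 and 1451 after rescaling without mitochondrially encoded genes. The difference between the sexes was 0.51 on the first day and 0.12 on the second, where it was not called (adjusted p = 0.292).

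Catalase is abundant in fat body, and markers of that tissue moved with the same groups. All 7 fat body markers tested were lower in male RNAi and 4 of 7 in female RNAi, and 3 of the 7 were called in the test of the sexes' difference, all with the smaller decrease in females. Of all tested genes 53.5% were lower in male and 55.7% in female RNAi, and 14.1% were called in the test of the sexes' difference. Their summed level was 3913 ± 237 TPM in male controls (3473 to 4287) and 2277 ± 354 TPM in male RNAi (1655 to 2871). In females it was 4344 ± 990 TPM (2950 to 6553) and 3824 ± 1125 TPM (2011 to 6661), and no defining fat body marker averaged under 1 TPM in any group. In female RNAi, where Cat was not called, lower means included Pepck (239 against 517 TPM), AkhR (63.8 against 108) and to (280 against 424). The mean of bmm was higher (72.7 against 68.1 TPM), and so was that of Lsp2 (298 against 76.3), with a lower median (21.9 against 50.9). In controls Cat was lower in females (267 against 347 TPM), while the summed marker level was not. Most of that sum was apolpp, at 3016 TPM in female and 2057 TPM in male controls. Lsp2 (76.3 against 538 TPM), Pepck (517 against 609) and bmm (68.1 against 89.2) were lower in female controls. AkhR (108 against 73.3 TPM), to (424 against 415) and mdy (134 against 131) were not. The part of these markers in the Cat difference was not tested.

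Trxr-1 ranged from 38.5 to 76.6 TPM in female controls (median 57.8) and from 23.7 to 73.8 TPM in female RNAi (median 48.9). In males the ranges were 31.4 to 66.3 TPM (median 47) and 22.7 to 54.1 TPM (median 37.5). The groups overlapped widely in both sexes. The change was -0.24 in females (SE 0.095, limma adjusted p = 0.0252, 18 of 24 pairs) and -0.33 in males (SE 0.095, limma adjusted p = 0.00261, 20 of 24 pairs). In females the call was lost on the first day at a like size of -0.23 (adjusted p = 0.135), among the low-mt libraries at -0.19 (adjusted p = 0.0891) and after centring at -0.07 (adjusted p = 0.494); in males it was lost on the second day, at -0.14 (adjusted p = 0.133).

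After centring, neither regulator was called in either sex. cnc ranged from 67.8 to 117 TPM in female controls (median 79.9) and from 57.7 to 86.5 TPM in female RNAi (median 74.3), and its change was -0.21 (SE 0.044, limma adjusted p = 6.1e-05, 17 of 24 pairs). The difference was that of the first day and of the high-mt libraries. On the second day the change was -0.01 (adjusted p = 0.829), and among low-mt libraries it was -0.04 (adjusted p = 0.38), against -0.40 on the first day and -0.43 among high-mt libraries. High-mt female controls averaged 99.4 ± 9.77 TPM of cnc and low-mt female controls 75.3 ± 4.62, with no overlap, while high-mt and low-mt female RNAi averaged 73.8 ± 6.34 and 72.9 ± 6.81 TPM. In males cnc ranged from 94.8 to 125 TPM in controls (median 109) and from 87.1 to 117 TPM under RNAi (median 102), a change of -0.10 (SE 0.044, limma adjusted p = 0.0452, 21 of 24 pairs) that was no longer called in 6 of 10 alternatives and turned to 0.06 after centring.

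Keap1 ranged from 10.7 to 19.6 TPM in female controls (median 15) and from 9.8 to 15.9 TPM in female RNAi (median 12.6). In males it ranged from 15.6 to 22.9 TPM (median 19.1) and from 12.1 to 21.4 TPM (median 15.9). Its change was -0.21 in females (SE 0.046, limma adjusted p = 8.54e-05, 20 of 24 pairs) and -0.24 in males (SE 0.046, limma adjusted p = 9.25e-06, 22 of 24 pairs). These sizes lie near the all-gene median, and after centring Keap1 was at -0.04 in females (adjusted p = 0.466) and -0.08 in males (adjusted p = 0.0857). The sexes' changes differed by 0.03 for Keap1 (95% interval -0.10 to 0.16), by 0.10 for Gclm (-0.16 to 0.36), by 0.02 for Sod2 (-0.38 to 0.43), by 0.09 for Trxr-1 (-0.18 to 0.36) and by -0.11 for cnc (-0.23 to 0.02).

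**Figure D2:**
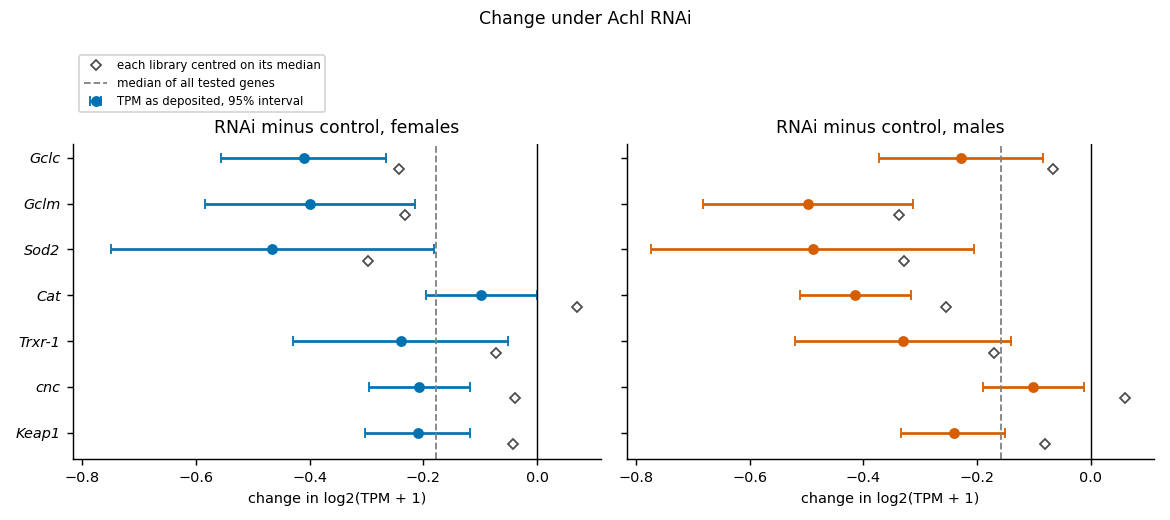
The fitted change in log2(TPM + 1), RNAi minus control, is plotted for each gene in females (left) and males (right), with its 95% interval; open diamonds are the change after centring each library on its median, and the dashed line is the median change of all tested genes. Gclm lies left of the dashed line in both panels, at -0.40 and -0.50, whereas Cat lies right of it in females (-0.10) and left of it in males (-0.41).

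Between the sexes, Gclm was the gene most raised in females and cnc and Keap1 were lower in females in both genotypes. In controls 5 of the 7 genes differed by sex, where 68.2% of all tested genes were called (27.7% higher in females, 40.5% lower), and under RNAi 4 of 7 differed against 74.0% of all genes (32.7% higher, 41.3% lower). Rescaling TPM without mitochondrially encoded genes moved the median sex difference of all genes from -0.05 to -0.20 in controls and from -0.04 to -0.24 under RNAi, and left 1883 genes higher and 5905 lower in female controls in place of 2932 and 4277, and 2079 higher and 6056 lower under RNAi in place of 3456 and 4361. Gclm was higher in female controls than in male controls by 0.60 (SE 0.093, limma adjusted p = 1.65e-08, 22 of 24 pairs) and under RNAi by 0.70 (adjusted p = 1.38e-10, 22 of 24 pairs). Under RNAi 17 of the 24 female libraries lay above every male library for Gclm.

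cnc was lower in females, at -0.37 in controls (SE 0.044, limma adjusted p = 5.81e-12, 22 of 24 pairs), and 18 female control libraries lay below every male control. Under RNAi the difference was -0.47 (adjusted p = 9.32e-17, 24 of 24 pairs), and the highest female library, 86.5 TPM, was below the lowest male library, 87.1 TPM. Keap1 was lower in females too, at -0.35 in controls (SE 0.046, limma adjusted p = 1.4e-10) and -0.32 under RNAi (adjusted p = 2.39e-09). Cat was lower in female controls, at -0.38 (SE 0.049, limma adjusted p = 8.82e-11, 24 of 24 pairs), while under RNAi the difference was -0.06 (adjusted p = 0.239). The sex differences of Gclm, cnc and Keap1 were called in the same direction in all 12 alternatives in both genotypes, but their size varied. In controls Gclm ran from 0.20 to 0.90, cnc from -0.57 to -0.13 and Keap1 from -0.52 to -0.28, and under RNAi Gclm ran from 0.22 to 0.88, cnc from -0.70 to -0.27 and Keap1 from -0.54 to -0.25. All 6 neuron and all 6 glia markers were also lower in females in both genotypes, with medians of -0.72 and -0.58 in controls; their part in the cnc and Keap1 differences was not tested.

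For Trxr-1, Gclc and Sod2 the sex difference varied with the female libraries that were used. Trxr-1 was higher in females by 0.23 in controls (SE 0.095, limma adjusted p = 0.0289) and by 0.32 under RNAi (adjusted p = 0.00205), but with only the high-mt female libraries the differences were -0.04 and -0.10, neither called, and with log2 mt:lrRNA as a covariate they were -0.24 in each genotype, called in the opposite direction. Gclc differed by 0.07 in controls (95% interval -0.08 to 0.21) and by -0.12 under RNAi (-0.26 to 0.03), and Sod2 by -0.14 (-0.42 to 0.15) and -0.12 (-0.40 to 0.17), none past the threshold. Each of these 4 values was called in 4 of 12 alternatives: with high-mt females Gclc was at -0.15 in controls and -0.49 under RNAi and Sod2 at -0.42 and -0.88, all called, and with low-mt females Gclc was at 0.22 in controls and Sod2 at 0.34 under RNAi, both called. mt:lrRNA differed strongly between the sexes, with medians of 27652 TPM in female and 117697 TPM in male controls, so the covariate and sex cannot be fully told apart.

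In order of level, female controls were highest for Gclc (46.6 TPM), Gclm (85.0) and Trxr-1 (56), and male controls for Sod2 (71.7), Cat (347), cnc (109) and Keap1 (18.9). The lowest group was female RNAi for Gclc, Sod2, Cat, cnc and Keap1, and male RNAi for Gclm and Trxr-1. Neighbouring groups in the order lay within 1 SD of each other for Gclc and Sod2 throughout. For Cat only male controls stood apart from the next group by more than the SD, and for cnc only the male groups from the female groups.

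The 2-day courses showed what made up the spread within groups. In male RNAi, Sod2 ran from 29.4 to 44.4 TPM in the 8 libraries of CT24 to CT38 and from 63.8 to 74.3 TPM in the 4 libraries of CT40 to CT46, with no overlap. Gclm in male RNAi likewise ran from 27.4 to 36.4 TPM and then from 42 to 47.9 TPM, and Trxr-1 from 22.7 to 33.2 TPM and then from 41.2 to 54.1 TPM. In male controls the same step was seen for Gclc, from 34.7 to 47 TPM at CT24 to CT38 and from 51.4 to 61.8 TPM at CT40 to CT46. Sod2 in male controls stepped too, from 45.5 to 87.8 TPM and then from 91.2 to 104 TPM. mt:lrRNA moved the other way over these blocks, from a mean of 150413 to 103651 TPM in male RNAi and from 132531 to 74731 TPM in male controls, and its part in the step was not tested.

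In females the levels differed between the days, though some first-day libraries already stood at second-day levels. Sod2 was at 89.1 and 72.7 TPM at CT34 and CT38 in female RNAi, and at 92.9 TPM at CT46 in female controls. Female controls averaged 97.3 ± 13.9 TPM of Gclm on the second day and 72.7 ± 12.1 on the first, 52.4 ± 6.26 against 40.7 ± 7.24 of Gclc, 64.3 ± 6.52 against 47.6 ± 7.74 of Trxr-1, and 76.7 ± 10.9 against 53.8 ± 14.7 of Sod2. cnc was lower on the second day, at 74.9 ± 4.79 TPM against 95.8 ± 12.4. Female mt:lrRNA averaged 83009 TPM on the first day of the controls and 18325 TPM on the second, so the day and mt:lrRNA lay largely together. The first-day controls at CT32 and CT40 were low-mt. They held 74.8 and 80.1 TPM of cnc, against 86.8 to 117 TPM in high-mt controls. Their Sod2 was at 61.8 and 45.0 TPM, against 38.9 to 92.9 TPM. The parts of the day and of mt:lrRNA were not tested. Among genes whose mean log2 level was within 0.5 of it, the SD of Sod2 exceeded that of 92.2% in female and 96.5% in male controls, and of 98.2% in female and 94.1% in male RNAi; for Keap1 these shares ran from 5.96% to 28.8%.

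**Figure D3:**
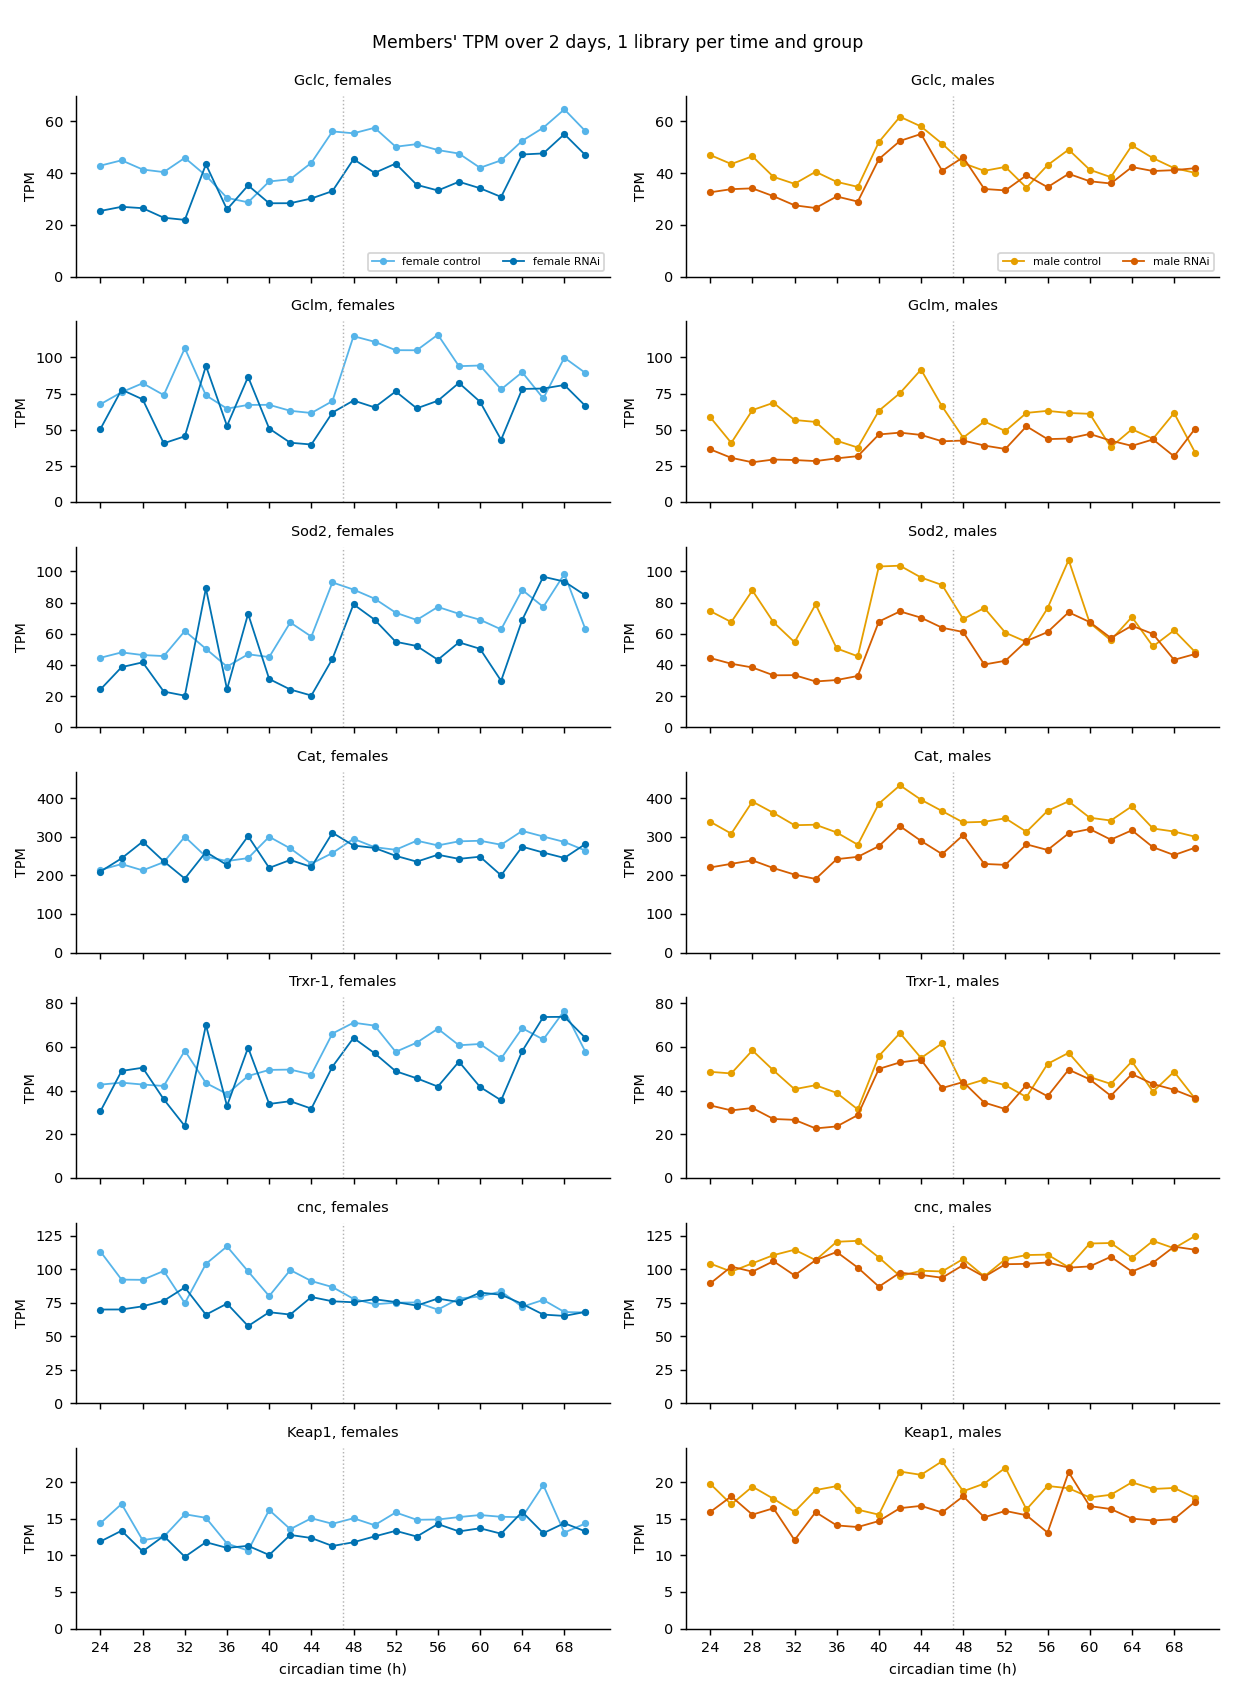
TPM of each gene (rows) against circadian time in hours in females (left) and males (right), 1 library per point; the dotted line parts the first day from the second. Sod2, Trxr-1 and Gclc step up together at CT40 in male RNAi, and Sod2 and Gclc also do so in male controls. On the second day cnc in female controls averages near the level of female RNAi (74.9 against 74.5 TPM).

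**Figure D4:**
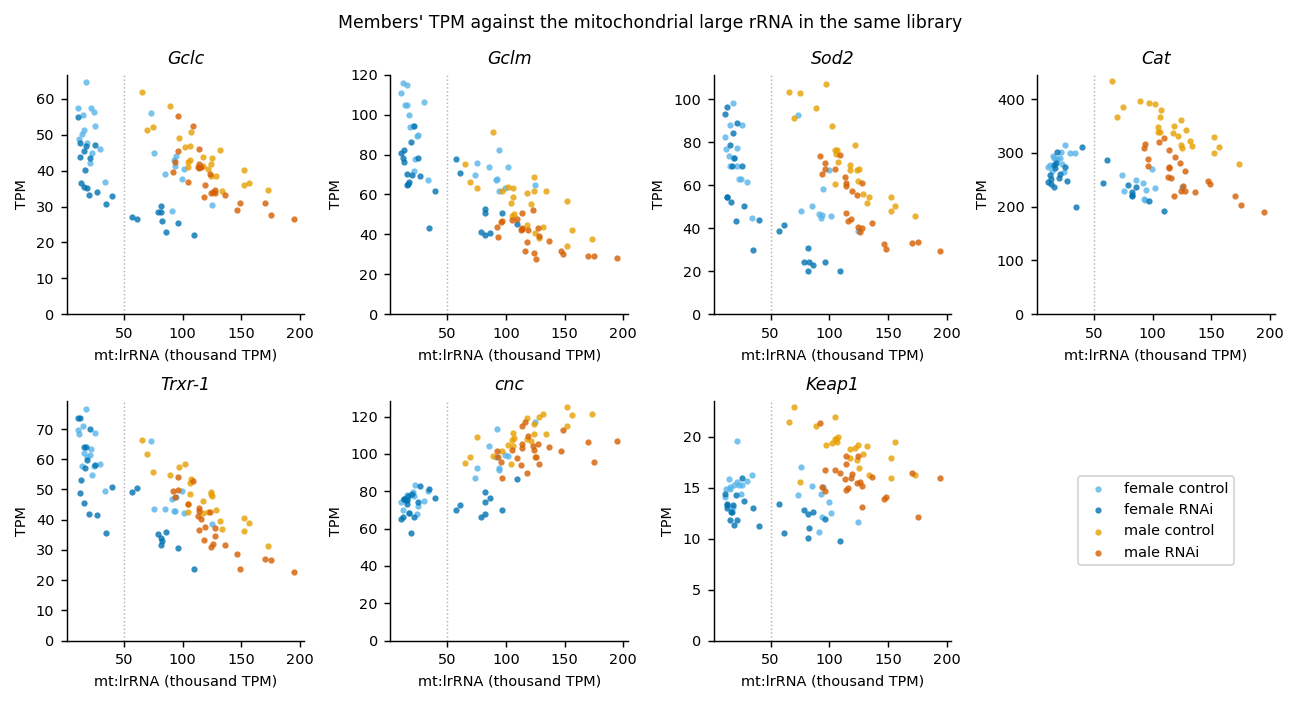
TPM of each gene (vertical axis) against the mt:lrRNA level of the same library (horizontal axis, scaled as its label gives), coloured by group; the dotted line is the 50000 TPM that splits the female libraries. In female RNAi Sod2 averages 65.4 TPM below the line and 27.5 TPM above it, and cnc is higher in female controls above the line (99.4 TPM) than below it (75.3 TPM).

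A daily rhythm was looked for in each group with a 24-h cosine and sine. None of the 7 genes was called in any group by limma (0 of 7 in each), where 1.60% of all tested genes were called in female and 1.26% in male controls, and 1.40% in female and 1.02% in male RNAi. At an unadjusted p under 0.05 there was 1 gene of 7 in female controls (Gclc) and 3 in male RNAi (Gclc, Cat and Trxr-1), with 0 in the other groups. These counts were the same without the trend and robust options of limma.

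Gclc came nearest. Its fitted peak-to-trough ratio was 1.35 in female controls with a peak at 23.8 h of circadian time (limma p = 0.0154, adjusted p = 0.308), and 1.43 in male RNAi with a peak at 19.7 h (p = 0.00315, adjusted p = 0.151). In female RNAi the ratio was 1.27 with a peak at 19.5 h (adjusted p = 0.531) and in male controls 1.26 at 19.8 h (adjusted p = 1). All 4 fitted peaks fell in the late subjective night, with standard errors of 1.1 to 1.6 h, though none of these rhythms was called. In males Gclc averaged 55.8 TPM in controls and 48.5 TPM under RNAi at CT40 to CT46, the block of the step given above. At the same hours of the second day, CT64 to CT70, it ran from 40.1 to 50.7 TPM in controls and from 40.8 to 42.4 TPM under RNAi. Averaged over the 2 days, Gclc was highest at 22 h in female controls, at 56.2 TPM against 36.3 TPM at 12 h, and highest at 20 h in male RNAi, at 48.2 TPM against 31.1 TPM at 8 h.

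The Gclc rhythm passed the threshold under some alternatives, in which more of all genes were called too. In female controls Gclc was called after median centring (adjusted p = 0.0294), after rescaling without mitochondrially encoded genes (adjusted p = 0.0405), with a linear trend over time (adjusted p = 0.00399) and with the mt:lrRNA covariate (adjusted p = 0.00141). Of all tested genes 2.34%, 1.81%, 5.85% and 3.57% were called in these 4 settings, against 1.60%. With the covariate it was also called in female RNAi (adjusted p = 0.0306) and male RNAi (adjusted p = 0.00601), where 3.67% and 2.07% of all genes were called, and not in male controls (adjusted p = 0.289); the peaks in the 3 called groups were at 22.9, 19.4 and 19.9 h. In male RNAi it was further called when the female libraries in the fit were cut to the low-mt set (adjusted p = 0.0087) or the high-mt set (adjusted p = 0.00479), when 6.23% and 2.66% of all genes were called. With the low-mt set Cat in male RNAi was called as well (adjusted p = 0.0476).

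The other fitted ratios ran from 1.03 to 1.46. Gclm had a ratio of 1.34 in female controls with a peak at 5.2 h (adjusted p = 0.635), and Cat one of 1.25 in male RNAi with a peak at 17 h (adjusted p = 0.209). Sod2 and Trxr-1 each had 1.46 in male RNAi (adjusted p = 0.432 and 0.3). Their level there rose at CT40, fell back to 40.3 TPM for Sod2 at CT50 and to 31.5 TPM for Trxr-1 at CT52, and stood at 73.7 and 49.6 TPM at CT58. On the first day alone, male RNAi gave calls for Gclc, Sod2, Cat and Trxr-1, when 23.3% of all genes were called, and on the second day alone female RNAi gave calls for Gclc, Sod2 and Trxr-1, when 28.9% were called.

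No member's rhythm was called different between groups over the 2 days. limma called 0 of the 7 genes, also at an unadjusted p under 0.05, for the change by RNAi in females (0.0189% of all genes called), in males (0.00%), between the sexes in controls (0.00946%) and under RNAi (0.00946%). On the second day alone, the rhythms of Sod2, Cat and Trxr-1 differed between the sexes under RNAi (adjusted p = 0.0045, 0.0225 and 0.0131), when 1781 of all tested genes were called. Over both days the smallest p was that of Cat between the sexes under RNAi, 0.0521 (adjusted p = 0.986).

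Across libraries within a group some of the genes varied together and cnc varied against them. After median centring, the mean over the 4 groups of the within-group Pearson correlation (24 libraries each) was 0.88 for Sod2 with Trxr-1, 0.66 for Gclc with either of them and 0.55 for Gclm with either. cnc ran against them, at -0.78 with Sod2, -0.77 with Trxr-1, -0.59 with Gclc and -0.49 with Gclm. Values as low are common: 9.59% of all tested genes had a lower mean correlation with Sod2, 8.98% with Trxr-1, 9.78% with Gclc and 11.9% with Gclm, while that of Sod2 with Trxr-1 was above 98.9% of genes. The ligase subunits correlated less with each other (0.29, above 73.2% of genes) than with Sod2, and cnc and Keap1 correlated at 0.30. Libraries of a group share a time series and the mt:lrRNA steps above, so these values describe co-variation and are given without a test.

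**Figure D5:**
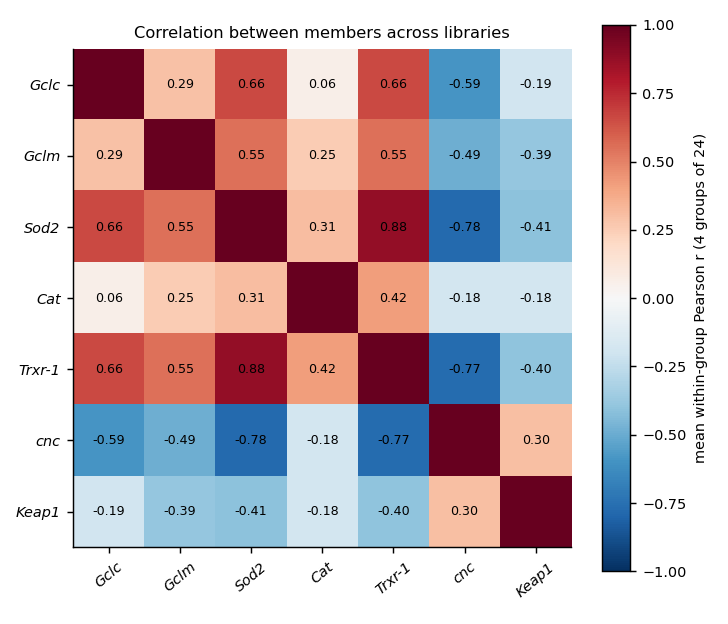
Mean within-group Pearson correlation (colour scale from -1 to 1, printed in each cell) between each pair of the 7 genes, over 4 groups of 24 libraries, on median-centred log2(TPM + 1). Sod2 and Trxr-1 are closest (0.88), and cnc is negative with all but Keap1.

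The genes most like each member by the same measure were drawn from all tested genes. Sod2 was closest to ND-75, a subunit of respiratory complex I (0.95), UQCR-C1, a subunit of complex III (0.94), and the glutathione transferase gene GstE12 (0.94). Trxr-1 was closest to UQCR-C1, ND-75 and the spectrin gene beta-Spec (0.90 each), and cnc to the cyclin gene CycG, CG34394 and the Smad gene Smox (0.94 each). Gclc was closest to CG9674 (0.80), the importin gene Karybeta3 (0.79) and the proton pump subunit Vha100-2 (0.79). Lower values were found for Cat, closest to the formaldehyde dehydrogenase gene Fdh (0.64), Zw (0.63) and CG9914 (0.62), for Gclm, with ecd (0.63) and SREBP (0.62) among the closest, and for Keap1, closest to the insulin receptor InR (0.47), GMF (0.46) and Kap-alpha3 (0.46).

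Of 61 other genes in 7 lists of the same pathways, 53 were tested; under RNAi 1 was higher and 28 were lower in females, and 0 were higher and 40 lower in males, where 55.7% and 53.5% of all tested genes were lower. The counts of each list below hold few genes and are to be read against these shares. The median change of the 53 genes was -0.20 in females and -0.29 in males, beside -0.18 and -0.16 over all tested genes. After median centring the counts were 6 higher and 8 lower in females and 1 higher and 25 lower in males, where 11% and 17.7% of all tested genes were lower.

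NADPH feeds both the thioredoxin and the glutathione systems. The genes listed under its supply were all lower in males (6 of 6, median -0.69) and 3 of 6 were lower in females (median -0.24). Taldo, transaldolase, belongs to the branch of the pentose phosphate path that makes no NADPH itself. It went from 136 ± 21.8 to 74.0 ± 19.9 TPM in males, a change of -0.90 (SE 0.11, limma adjusted p = 7.42e-11, lower in 24 of 24 pairs), against -0.17 in females (adjusted p = 0.175). Men, malic enzyme, went from 381 ± 63.7 to 230 ± 54.6 TPM in males (-0.74, SE 0.096, limma adjusted p = 3.83e-10), against -0.20 in females (adjusted p = 0.0621). The sexes' changes differed by 0.73 for Taldo (adjusted p = 0.000356) and by 0.54 for Men (adjusted p = 0.00251). In females the leading genes were Idh, isocitrate dehydrogenase, at -0.46 (adjusted p = 4.8e-06), and Zw, glucose-6-phosphate dehydrogenase, at -0.32 (adjusted p = 0.00285). The fat body markers given beside Cat were also lower in male RNAi, and their part was not tested.

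Among the genes of glutathione synthesis and turnover 5 of 9 were lower in each sex, a share near that of all tested genes, with medians of -0.22 in females and -0.29 in males. CG4829 fell by 0.28 and gb, a transporter gene tied to glutamate, by 0.27 in females (limma adjusted p = 3.34e-08 and 3.4e-05). Cbs, cystathionine beta-synthase, fell by 0.72 in males (adjusted p = 0.0012), and CG32495, a glutathione synthetase copy, by 0.32 (adjusted p = 0.0145). GSS and CG32495 are near-identical neighbours, so which of them the reads came from is uncertain. Their group means were the same to 3 digits except in male controls, at 34.9 TPM for GSS and 37.1 TPM for CG32495, and GSS was at -0.21 in males (adjusted p = 0.142).

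Of the genes that remove superoxide and peroxides, 6 of 12 were lower and 1 higher in females, and 10 of 12 were lower in males, with medians of -0.20 and -0.41. Prx6005, a peroxiredoxin, fell by 0.45 in females, and PHGPx, a glutathione peroxidase-like enzyme, by 0.37. Without centring, Prx2540-1 was the only gene of the 7 lists called higher in females, at 0.25 (limma adjusted p = 0.0469, higher in 12 of 24 pairs). It was at 0.56 on the first day and -0.05 on the second. In males it fell by 0.64, as did its near-identical copy Prx2540-2 by 0.63. The values of these copies cannot be assigned to either with certainty.

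Of the thioredoxin, glutaredoxin and methionine sulfoxide reductase genes, 3 of 6 tested were lower in females and 5 of 6 in males, with medians of -0.23 in each sex. Of all tested genes 55.7% and 53.5% were lower. Eip71CD, a methionine sulfoxide reductase, fell by 0.50 in females and by 0.32 in males. SelR, which reduces the other form of methionine sulfoxide, fell by 0.27 in females and was at -0.03 in males (adjusted p = 0.618), and the glutaredoxin gene CG14407 fell by 0.42 in males.

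Of the partners of cnc and Keap1, 4 of 6 were lower in females and 3 of 6 in males, beside 55.7% and 53.5% of all tested genes. Their medians were -0.12 in each sex, a smaller change than the median of all genes. Cul3, which builds the ubiquitin ligase with Keap1, fell by 0.23 and 0.20, and ref(2)P, the fly p62, by 0.21 and 0.24 (adjusted p = 0.000281 in females and 2.28e-05 in males). Of the genes reported in flies to respond to cnc, 4 of 7 tested were lower in females and 5 of 7 in males, with medians of -0.23 and -0.39. Cyp6a8, a cytochrome P450, went from 73.4 ± 18.6 to 33.1 ± 7.68 TPM in females (-1.11, limma adjusted p = 2.51e-15, lower in 23 of 24 pairs) and from 183 ± 37.9 to 112 ± 31.4 TPM in males (-0.73, adjusted p = 1.42e-08). Jheh1, an epoxide hydrolase, fell by 0.45 and 0.56. Cyp6a8 and Jheh1, both detoxification genes, were named as the largest changes of their list. The ligase subunits, which cnc is also known to drive, changed by at most 0.50. Cyp6a8 changed more than they did and Jheh1 by a like amount, and the part of cnc was not tested.

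The iron storage and other redox genes were lower in 3 of 7 cases in females and 6 of 7 in males, beside 55.7% and 53.5% of all tested genes. Their medians were -0.16 and -0.25. park, which acts in mitochondrial quality control, fell by 0.22 and 0.28, Fer2LCH, a ferritin chain, by 0.20 in females, and dj-1beta by 0.58 in males (adjusted p = 1.76e-05).

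Between the sexes the 53 genes were split. In controls 17 were higher and 18 lower in females, and under RNAi 23 were higher and 13 lower, beside 27.7% higher and 40.5% lower of all tested genes in controls and 32.7% and 41.3% under RNAi. After rescaling without mitochondrially encoded genes the counts were 10 higher and 29 lower in controls, and 17 and 25 under RNAi. Called rhythms among them were few. gb was rhythmic in male controls (ratio 1.67, peak at 1.0 h, limma adjusted p = 9.07e-06) and male RNAi (ratio 1.53, peak at 1.9 h, adjusted p = 0.000811). Sod3, an extracellular superoxide dismutase, was rhythmic in female controls (ratio 1.66, peak at 3.7 h, adjusted p = 0.000173), as was Prx2540-1 (ratio 1.95, peak at 14.4 h, adjusted p = 0.0221).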

How the data were processed

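The authors deposited 1 table of TPM for 96 libraries of poly(A)-selected, stranded RNA from fly heads (200 ng of total RNA each, per the labels' protocols), for which the submitters' processing notes name STAR, RSEM and dm6; no source used here gives their versions. TPM sums to the same total in every library and holds no counts, so the depth is unknown and no counting interval is given; a gene's TPM moves when another abundant RNA of its library moves. The design foresaw counts as an alternative, and the TPM test was used.

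From the deposited TPM, log2(TPM + 1) of 10568 genes (1 TPM or more in 24 or more libraries) was fitted with limma 3.58.1 (trend and robust; R 4.3.3), with a mean, a 24-h cosine and a sine for each group. Level contrasts were two-sided, rhythms and their differences were F tests, and p was adjusted by Benjamini-Hochberg over all tested genes, with a threshold of 0.05. P-values measure the spread of single libraries around the fitted courses. They take the libraries of a series as independent. Steps shared by neighbouring libraries were not modelled, so the standard errors may be too small. The fit was tested on simulated data with independent noise, which held no such steps. Alternatives were a pseudocount of 0.1, no filter, median centring, rescaling without mitochondrial genes, plain limma, single days, female sets by mt:lrRNA (split at 50000 TPM), other time terms, a same-CT block and, chosen after seeing the data, log2 mt:lrRNA as a covariate. Python 3.11.15 with matplotlib 3.10.9 made the figures.

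The genes and lists were chosen with earlier results of these data known. Named are all 7 members, the 3 genes most like each (1 is not reported here), and, of each list, the called genes of largest change in a direction (up to 2) in the RNAi comparisons and the 2 called rhythms of lowest p; list genes of the sex comparisons are given as counts. Symbols were matched through the Ensembl release 115 annotation; GSS, CG32495, Eip71CD and CG14407 are the table's names for Gss1, Gss2, MsrA and Grx5.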

Additional observations from a re-analysis of the deposited data

Results flagged for a closer look

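The following genes are listed because the test of the difference between the sexes' RNAi changes (female change minus male change, limma, adjusted over all tested genes) passed its threshold, as it did for 14.1% of all tested genes. Among the 7 genes this was Cat, at 0.32 on the log2 scale, called lower under RNAi in males, while females were at -0.10 (adjusted p = 0.0776) and were called lower in 4 of 12 alternatives. Among the other pathway genes the differences were 0.89 for Prx2540-1 (adjusted p = 1.9e-05), 0.88 for Prx2540-2 (adjusted p = 0.00417), 0.73 for Taldo (adjusted p = 0.000356), 0.54 for Men (adjusted p = 0.00251), 0.38 for GstD1 (adjusted p = 0.0416) and 0.20 for Grx1 (adjusted p = 0.0185). For each of these the RNAi change in males was the lower one. The opposite sign was found for SelR, at -0.24 (adjusted p = 0.00531), which was lower under RNAi in females. Groups of 24 libraries were not screened for single outlying libraries.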

How the results depend on the processing

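Of 980 recomputed values of the 7 genes, 882 kept their side of the threshold and, for changes in level, their direction. Of the rest, 45 newly passed the threshold, 23 no longer passed it and 30 changed sign. The total includes rhythm tests that stayed uncalled, for which no direction was compared. It also includes settings close to the main one, such as the pseudocount of 0.1 and plain limma, which left all 91 values each the same. The number of genes called lower in RNAi females was 2 of 7 after median centring and 6 without it, and in RNAi males 4 after centring and 3 on the second day, against 7. The sexes' RNAi changes differed for 1 gene, where 14.1% of all tested genes were called. They differed for 2 after centring, where 8.09% of all genes were higher and 6.25% lower. The count was 2 after rescaling without mitochondrial genes, 2 on the first day, 2 with the mt:lrRNA covariate, 3 with high-mt females and 0 on the second day. Sex under RNAi gave 4 genes, where 74.0% of all genes were called, and 7 with the covariate. All-gene counts moved between settings as well. Where no all-gene value is given for a setting, its count is not read as a result about the 7 genes. Rhythms, 0 of 7 in each group, numbered in female controls 2 after centring, 1 after rescaling, 2 with a linear trend and 1 with the covariate; in female RNAi 3 on the second day and 1 with the covariate; in male RNAi 4 on the first day, 2 with low-mt females, 1 with high-mt females and 1 with the covariate. The sex difference of rhythm under RNAi gave 3 on the second day.

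Signs changed as follows. After centring, the RNAi change of Cat in females was 0.07 and that of cnc in males 0.06, neither called. For the difference between the sexes' RNAi changes, rescaling gave -0.03 for Sod2 and -0.019 for Keap1. On the second day this difference was -0.20 for Gclm, -0.066 for Sod2, -0.11 for Trxr-1 and 0.081 for cnc. It was 0.058 for cnc with low-mt females, -0.46 for Sod2 and -0.058 for Trxr-1 with high-mt females, and -0.11 for Sod2 and 0.00 for Trxr-1 with the covariate. For sex in controls, Gclc was at -0.10 after rescaling, -0.16 on the first day, -0.15 with high-mt females and -0.31 with the covariate; Trxr-1 at -0.049 on the first day, -0.038 with high-mt females and -0.24 with the covariate; Sod2 at 0.22 on the second day and 0.064 with low-mt females. For sex under RNAi, Cat was at 0.006 on the first day and 0.005 with low-mt females; Gclc at 0.076 on the second day and 0.11 with low-mt females; Sod2 at 0.15 and 0.34; Trxr-1 at -0.10 with high-mt females and -0.24 with the covariate. Prx2540-1 in RNAi females was at -0.048 on the second day. The cause was not tested.

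With the same-CT replicate block (shared CT is a time, not a shared sample), 6 genes were called lower in RNAi females and 6 in RNAi males, where cnc had an adjusted p of 0.056, and the block changed no other call. Over all genes, calls in RNAi females numbered 6382, and 2351 after centring; in RNAi males 6144, against 3420 after centring and 3207 on the second day; for the sexes' difference 1493, and 513 on the second day. Unknown depth, 1 library per time and group, and the mt:lrRNA sets limit all of these values.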
